A study of Mus musculus with 6 samples.

Results

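The genes described here code for 4 families of guidance cues and their receptors: Slits with Robo receptors, semaphorins with plexins and neuropilins, netrins with Unc5 receptors, and ephrins with Eph receptors. Members were matched by gene symbol alone, though the families were chosen with earlier results of these data known. Of the 53819 genes in the count table, 68 matched. Of these, 63 had enough counts to be tested. The other 5, *Epha6*, *Epha8*, *Epha10*, *Robo3* and *Unc5d*, had between 0 and 9 counts in every library.

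RNA was sequenced from flexor digitorum longus (FDL) tendons of the mouse, with 1 tendon per library and n = 3 libraries per genotype. DTR tendons came from Scx-Cre+; DTR F/+ mice, and WT tendons from Scx-Cre-; DTR F/+ littermates. The tendons had been cut and repaired, and diphtheria toxin (DT) was given on days 14 to 18 after surgery. Both genotypes therefore carried the floxed diphtheria toxin receptor allele, and both were given the toxin in 5 daily injections. The Cre transgene was thus the difference set by the design. The study used male and female mice, and the sex and batch of each library are not given. Mice were aged 10 to 12 weeks at surgery. Tendons were collected at day 28, which the study's methods and the extraction text count from surgery, although the sample titles count it from depletion. Cre is driven by Scx, the gene of the tendon transcription factor scleraxis. It acts in any cell that has expressed Scx, which limits the model to depletion of a lineage rather than of a defined cell state, and cells of that lineage can remain after DT. The study asked how depletion of Scx-lineage cells altered the transcriptome of the healing tendon.

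Guidance cues were first described in the growing nervous system, where they attract or repel the tips of axons. Slits are large secreted proteins bound by Robo receptors. Semaphorins are secreted or membrane-bound and signal through plexins, with neuropilins as co-receptors for most secreted members. Netrins are secreted relatives of laminin that repel cells through Unc5 receptors, and ephrins stay on the cell surface and signal to Eph receptor tyrosine kinases on the neighbouring cell. In connective tissue and vessels the same proteins take part in cell migration, sorting and vessel growth.

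Library totals ranged from 42744138 to 48854310 counts, and the guidance genes together held 0.21% to 0.227% of the counts in WT libraries and 0.211% to 0.235% in DTR libraries. The 6 tendon markers held 1.21% to 1.49% of counts in WT and 1.57% to 1.65% in DTR, with none at 0. They did not move alike. *Thbs4* (log2 fold change 0.65, SE 0.16) and *Scx* (0.39, SE 0.12) were higher in DTR with no overlap. *Tnmd* and *Mkx* were fitted higher, and *Fmod* (-0.17, SE 0.17) and *Comp* (-0.18, SE 0.17) lower, with groups overlapping. Skeletal muscle markers held 1.32% to 1.85% of counts in WT, but 0.223%, 1.59% and 0.425% in DTR replicates 1 to 3. Keratinocyte markers held 0.276% and 0.173% in WT replicates 1 and 2, against 0.000456% to 0.024% in the other 4 libraries. In bulk tissue, fewer cells of a type and less RNA per cell cannot be told apart.

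No guidance gene differed between DTR and WT tendons at an adjusted p below 0.05 in edgeR's quasi-likelihood test, where 0% of the 17496 genes tested did. At an unadjusted p below 0.05 there were 8 guidance genes, which was 12.7% of the 63 tested beside 11% of all genes. They were 4 higher in DTR (5.52% of all genes) and 4 lower (5.45% of all genes). All 3 DTR libraries lay on the same side of all 3 WT libraries for 8 guidance genes, again 12.7%, beside 16.8% of all genes, with 5 above WT (8.96% of all genes) and 3 below (7.85%). In this fit the guidance genes as a family thus stood close to the background of the table. DESeq2 placed 2 of them below an adjusted p of 0.05, *Slit2* and *Epha3*, both higher in DTR, where it called 2.65% of the genes it gave an adjusted p. The median log2 fold change was -0.06 over the guidance genes and 0.01 over all genes tested, with 29 guidance genes fitted higher in DTR and 34 lower, beside 51.5% of all genes fitted higher.

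Promoter sequence is shown for *Slit2* with its receptor *Robo1*, and for *Epha3* and *Epha7*, which were fitted in opposite directions. These were chosen after their values were seen, as genes whose groups did not overlap. Each window holds 230 bases, from 250 to 21 bases before the RefSeq start site, read 5′ to 3′ on the strand of the gene from RefSeq on GRCm38.p6. Capitals mark an E-box (CANNTG, the motif of scleraxis and other helix-loop-helix factors), a GC box (GGGCGG), an AP-1 motif (TGANTCA) or a TATA box (TATAAA) on either strand, and no base was shared by 2 motifs.
*Slit2* at chr5:47982905-47983134, plus strand: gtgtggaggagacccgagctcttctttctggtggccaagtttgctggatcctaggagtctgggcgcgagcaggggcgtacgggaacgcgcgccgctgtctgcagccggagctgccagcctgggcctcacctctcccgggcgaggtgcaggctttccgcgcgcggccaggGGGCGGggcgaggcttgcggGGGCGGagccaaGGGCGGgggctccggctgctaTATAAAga
*Robo1* at chr16:72662899-72663128, plus strand: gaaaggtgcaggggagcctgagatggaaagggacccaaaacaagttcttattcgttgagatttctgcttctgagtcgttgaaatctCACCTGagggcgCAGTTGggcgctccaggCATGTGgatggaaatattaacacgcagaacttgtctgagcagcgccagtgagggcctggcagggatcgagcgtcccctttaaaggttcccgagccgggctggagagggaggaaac
*Epha3* at chr16:63864196-63864425, minus strand: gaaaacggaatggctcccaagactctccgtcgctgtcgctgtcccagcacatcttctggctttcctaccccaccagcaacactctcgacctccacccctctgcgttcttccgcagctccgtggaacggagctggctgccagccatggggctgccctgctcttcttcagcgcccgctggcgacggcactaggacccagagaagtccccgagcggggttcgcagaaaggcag
*Epha7* at chr4:28812881-28813110, plus strand: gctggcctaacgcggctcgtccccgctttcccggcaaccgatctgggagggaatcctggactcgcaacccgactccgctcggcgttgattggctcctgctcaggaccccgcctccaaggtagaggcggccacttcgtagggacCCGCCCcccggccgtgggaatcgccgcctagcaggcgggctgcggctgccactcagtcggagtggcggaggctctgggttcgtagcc

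The *Slit2* window was 70.0% G and C, with 3 GC boxes and 1 TATA box. The *Robo1* window held 3 E-boxes, and its RefSeq start lay inside the longer gene of the GENCODE annotation. None of the 4 motifs occurred in the *Epha3* window, and the *Epha7* window held 1 GC box. No annotated exon lay in any of these windows. Across the 75 windows found for 59 of the 68 genes, 65.3% held a GC box and 44.0% an E-box, beside 29.8% and 63.5% of all 32841 windows of that length. An AP-1 motif was in 2.67% of the guidance windows and 6.34% of all windows, and a TATA box in 2.67% and 11.8%. Median G and C content was 64.3% in the guidance windows and 51.7% in all. These matches describe letters and not bound sites.

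Levels can be compared between genes only per length, and are given here as normalized counts per kb of the longest coding transcript. *Sema3c*, a secreted semaphorin, was the most abundant guidance transcript, at 2119 ± 218 per kb in WT and 2473 ± 393 in DTR (mean ± SD, n = 3). It was followed by *Plxnb2*, *Nrp1*, *Ntn1*, *Nrp2*, *Ntn4* and *Plxnd1*. *Slit2* was far down the order, at rank 42 of 63, and *Ntn5* was at the bottom, at 8.68 per kb in WT and 2.65 in DTR. *Nrp1* and *Ntn1*, next to each other in the order, were at 1109 ± 55.2 and 1187 ± 16.8 per kb in WT, where all 3 *Ntn1* values were the higher, and at 1252 ± 140 and 1124 ± 346 in DTR, within the spread of *Ntn1*. The order depends on the length used. Over the union of all annotated exons, *Sema3c* stayed at rank 1, but *Nrp1* was at rank 11, *Nrp2* at 8 and *Slit2* at 50.

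**Figure D1:**
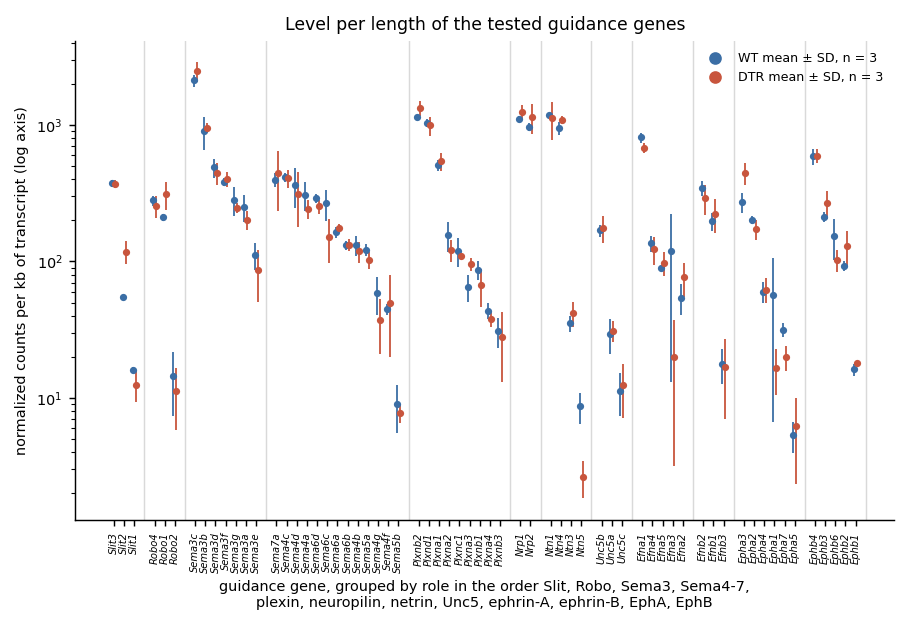
Normalized counts per kb of transcript (vertical log axis) for the 63 tested guidance genes, grouped by role along the horizontal axis, as means with SD bars over 3 WT (blue) and 3 DTR (red) libraries. *Sema3c* stands highest in both genotypes, and both points of a gene lie within each other's bars for 24 genes, only 1 of them for 20 and neither for 19, *Slit2* and *Robo1* included.

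Among the Slits, *Slit2* stood at 551, 530 and 569 (WT replicates 1 to 3, normalized counts) against 1375, 931 and 1207 for DTR; later values follow this order. The WT values were tight and every DTR value lay above them, with DTR replicate 2 the nearest. Means were 550 ± 19.7 and 1171 ± 224, a 2.13-fold difference (log2 1.09, SE 0.15), and this was the highest fold change fitted among the guidance genes. The adjusted p was 0.199 in edgeR and 6.39e-07 in DESeq2. The study itself picked *Slit2* among genes of interest on these libraries, so its value here is not independent evidence. *Slit3*, the dominant Slit, measured 1891, 1879 and 2078 in WT and 1980, 2024 and 1777 in DTR. Its groups overlapped throughout, at a log2 fold change of -0.02 (SE 0.09). *Slit1* was low, between 51.5 and 93.5 in all libraries. Per kb, *Slit2* made up 12.1% to 12.8% of the Slit level in WT and 18.9% to 26.3% in DTR, and *Slit3* 83.7% to 84.4% and 71.4% to 78.4%. Over union exon length the *Slit2* share was 5.88% to 6.23% in WT and 9.56% to 13.9% in DTR.

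The receptor *Robo1* stood at 1603, 1496 and 1666 against 2955, 1856 and 2247. Its groups did not overlap, and DTR replicate 2 was again the lowest DTR value while replicate 1 stood well above the rest. The log2 fold change was 0.57 (SE 0.16), with an adjusted p of 0.353 in edgeR and 0.0541 in DESeq2. *Robo4*, the Robo of endothelial cells, was at 280 per kb in WT, where *Robo1* was at 210, and at 254 in DTR, where *Robo1* was at 311. The order in DTR held in replicates 1 and 2 but not in 3, and over union exon length *Robo4* was the higher in both genotypes (261 against 96.2 in WT and 238 against 142 in DTR). Its own counts overlapped, at 1255 to 1468 in WT and 1120 to 1526 in DTR. Endothelial markers held 0.0645% to 0.0859% of counts in WT and 0.0627% to 0.0775% in DTR. *Robo2* varied most within the family, from 77.2 to 195 in WT and from 43 to 128 in DTR.

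**Figure D2:**
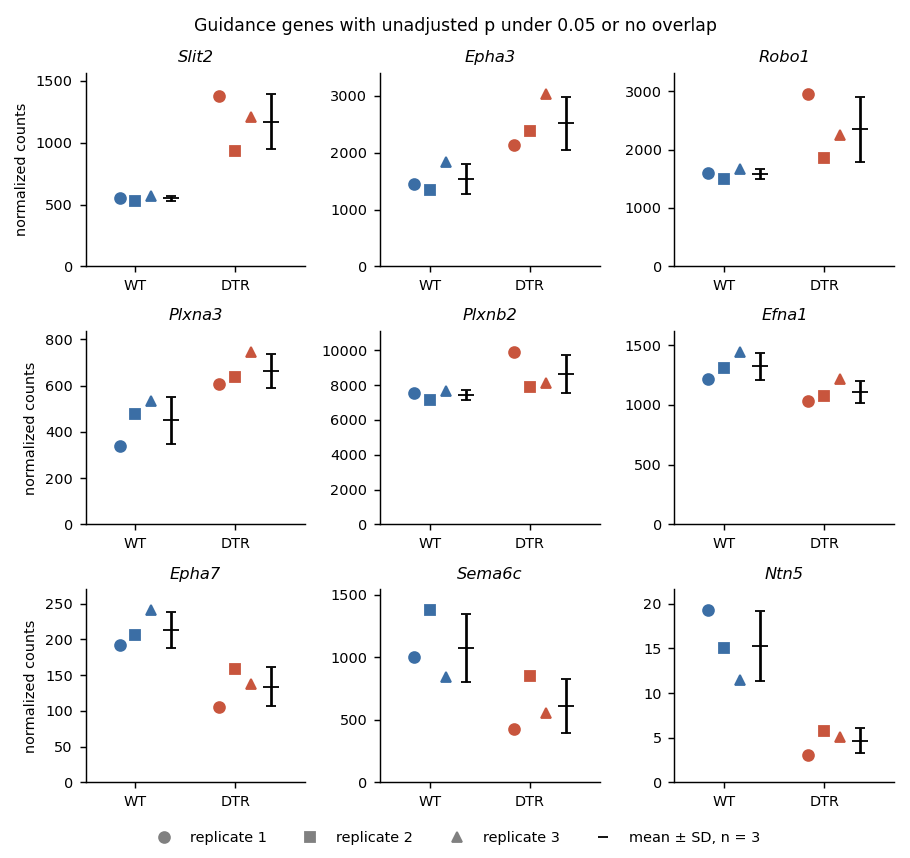
Normalized counts (vertical axis, from 0) in each library for the 9 tested guidance genes with an unadjusted p below 0.05 or no overlap between groups; symbols mark replicates 1 to 3 and bars the mean ± SD. The DTR points of *Slit2*, *Epha3*, *Robo1*, *Plxna3* and *Plxnb2* lie above all WT points, those of *Efna1*, *Epha7* and *Ntn5* below, and those of *Sema6c* overlap.

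The 7 secreted semaphorins all overlapped between the genotypes, with log2 fold changes from -0.37 (*Sema3e*) to 0.22 (*Sema3c*). *Sema3c* measured 10629, 11321 and 12955 against 12872, 16005 and 11864, with the WT maximum above 2 of the DTR values. *Sema3a*, a classical repellent of axons, was at 1481 ± 328 in WT and 1199 ± 183 in DTR (log2 -0.30, SE 0.19).

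Of the 13 membrane-bound semaphorins, 9 were fitted lower in DTR and 4 higher, with a median of -0.20. *Sema6d*, the highest in counts, measured 1746, 2044 and 1829 in WT and 1564, 1491 and 1849 in DTR. Only *Sema6c* reached an unadjusted p below 0.05, at 1002, 1376 and 845 in WT and 424, 850 and 554 in DTR. Its groups touched, since the highest DTR value stood above the lowest WT value, and its log2 fold change was -0.82 (SE 0.30, edgeR adjusted p = 0.434). The same 2 DTR libraries that were lowest in *Sema6c* were also lowest in skeletal muscle markers, of which 10 of 10 were fitted lower in DTR, with no member at an unadjusted p below 0.05. The part of muscle RNA in this result was not tested.

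Among the 9 plexins, the semaphorin receptors, *Plxna3* measured 337, 478 and 532 in WT and 606, 636 and 745 in DTR. Groups did not overlap, and the log2 fold change was 0.56 (SE 0.19, edgeR adjusted p = 0.389). *Plxnb2* was the most abundant plexin, at 7550, 7128 and 7677 in WT and 9908, 7890 and 8149 in DTR. The separation was small, with a log2 fold change of 0.22 (SE 0.11, unadjusted p = 0.0859, edgeR adjusted p = 0.496). The other 7 plexins overlapped, with log2 fold changes from -0.38 (*Plxnb1*) to 0.09 (*Plxna1*). Both neuropilins were fitted higher in DTR without separating. *Nrp2* measured 6470, 6116 and 6987 in WT and 9788, 6514 and 6658 in DTR, so only DTR replicate 1 stood out. *Nrp1* had a log2 fold change of 0.17 (SE 0.10).

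**Figure D3:**
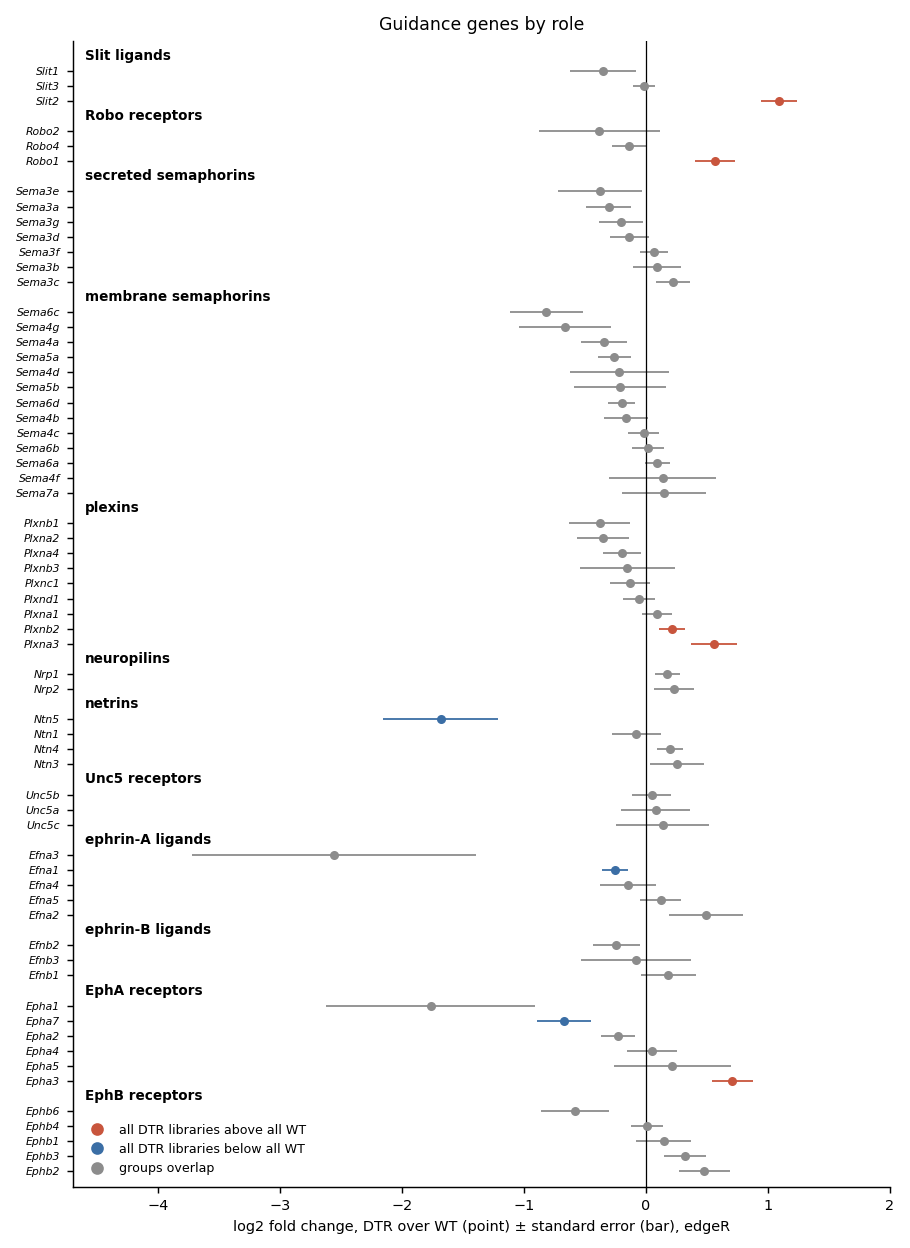
Log2 fold change of DTR over WT (horizontal axis) with its standard error for the 63 tested guidance genes, grouped by role, from the edgeR fit. *Slit2* lies farthest to the right at 1.09 and *Efna3* farthest to the left at -2.56, with a standard error of 1.17; colours mark the 5 genes above and 3 below all WT libraries.

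Netrins were carried by *Ntn1* and *Ntn4*. *Ntn1* measured 6886, 7079 and 6946 in WT, the smallest spread of any guidance gene (coefficient of variation 1.42%), and 8949, 5481 and 5370 in DTR, which spread to both sides of WT. The log2 fold change was -0.08 (SE 0.20). *Ntn5* was the netrin whose groups did not overlap, at 19.3, 15.1 and 11.4 against 3.09, 5.74 and 5.14. This fitted difference (log2 -1.68, SE 0.47, edgeR adjusted p = 0.347) rests on few counts, and *Ntn5* exons overlap *Sec1* on the other strand. *Unc5b*, the highest Unc5 receptor, measured 930, 942 and 1110 in WT and 1288, 895 and 899 in DTR, and all 3 tested Unc5 receptors overlapped.

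Of the ephrin-A ligands, *Efna1* measured 1218, 1306 and 1443 in WT and 1034, 1077 and 1216 in DTR. Its groups separated by the narrowest margin, between 1218 and 1216, with a log2 fold change of -0.25 (SE 0.11, edgeR adjusted p = 0.452). *Efna3* measured 528, 280 and 31.2 in WT and 27.8, 21 and 93.5 in DTR, with 2 WT libraries far above the other 4 libraries. *Efna1*, *Efna3* and *Efna4* are consecutive protein-coding genes on chromosome 3, and *Efna4* measured 235, 233 and 184 against 227, 145 and 217. Among ephrin-B ligands, *Efnb2*, an arterial ephrin, led at 1639, 1875 and 1440 in WT and 1751, 1046 and 1394 in DTR.

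*Epha3* was the EphA receptor with the highest counts, at 1442, 1336 and 1841 in WT and 2134, 2377 and 3037 in DTR. Every DTR value exceeded every WT value, and the log2 fold change was 0.71 (SE 0.17), with an adjusted p of 0.301 in edgeR and 0.00807 in DESeq2. Per kb, *Epha3* made up 38.2% to 52.0% of the EphA level in WT and 56.8% to 66.6% in DTR. *Epha7* was fitted in the opposite direction, at 192, 206 and 241 in WT and 105, 159 and 138 in DTR (log2 -0.67, SE 0.22, edgeR adjusted p = 0.389). *Epha1* measured 355, 169 and 30.1 in WT and 34.0, 73.6 and 55.5 in DTR, so WT replicates 1 and 2 stood apart for it as for *Efna3*. Those are the libraries with the most keratinocyte markers, of which 8 of 8 were fitted lower in DTR and 5 (*Krt5*, *Krt14*, *Krt1*, *Krt15* and *Dsg1a*) were at 0 in at least 1 library. Without those 2 libraries, the remaining WT value of *Efna3* (31.2) lay within the DTR range and that of *Epha1* (30.1) below it. With the same libraries left out, edgeR's log2 fold change was 1.04 (SE 0.26) for *Slit2*, 0.50 (SE 0.28) for *Robo1*, 0.45 (SE 0.23) for *Epha3*, -0.85 (SE 0.35) for *Epha7*, 0.32 (SE 0.21) for *Plxna3* and -0.47 (SE 0.40) for *Sema6c*. Only 1 WT library is then left and is assumed to vary like the DTR libraries, whose spread alone sets these standard errors. Whether skin RNA took part in the values of *Efna3* and *Epha1* was not tested. *Epha1* exons also overlap *Zyx*.

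**Figure D4:**
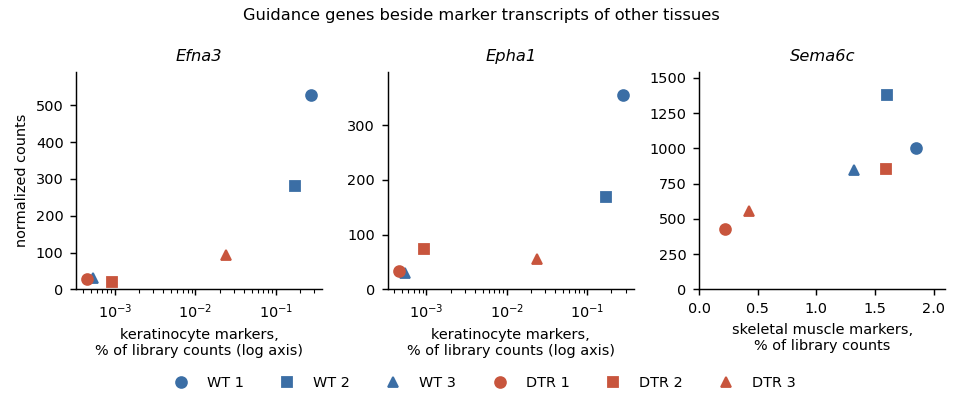
Normalized counts of *Efna3* and *Epha1* against keratinocyte markers (percent of library counts, log axis) and of *Sema6c* against skeletal muscle markers (percent, linear axis), 1 point per library. WT replicates 1 and 2 stand apart at the upper right for *Efna3* and *Epha1*, and DTR replicates 1 and 3 at the lower left for *Sema6c*.

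The EphB receptors all overlapped. *Ephb4*, a venous receptor of ephrin-B2, was the highest and measured 2154, 2770 and 2750 in WT and 2867, 2276 and 2592 in DTR. *Ephb2* measured 1111, 969 and 962 in WT and 1809, 995 and 1434 in DTR (log2 0.48, SE 0.21).

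Adipocyte markers were lower in DTR for 6 of 6 genes with no overlap, at 0.00271% to 0.00556% of counts in WT and 0.000421% to 0.00132% in DTR, with *Lep* at 0 in DTR replicates 1 and 3. Their part in the lower values of *Epha7*, *Efna1* and *Ntn5* was not tested.

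The median coefficient of variation over the tested guidance genes was 18.9% in DTR and 13.2% in WT, a difference given without a test. It was under 10% for 22 genes in WT and for 9 in DTR. The coefficient was not computed over all genes, so the difference is not shown to be particular to the guidance genes. DTR replicate 2 was the lowest of the 6 libraries for 22 of 63 guidance genes, or 34.9%, beside 16.9% of all genes. DTR replicate 1 was the highest for 18, or 28.6%, beside 22.9% of all genes. With DTR replicate 2 left out, edgeR placed *Slit2*, *Robo1* and *Ephb2* below an adjusted p of 0.05, where it called 3.02% of all genes.

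**Figure D5:**
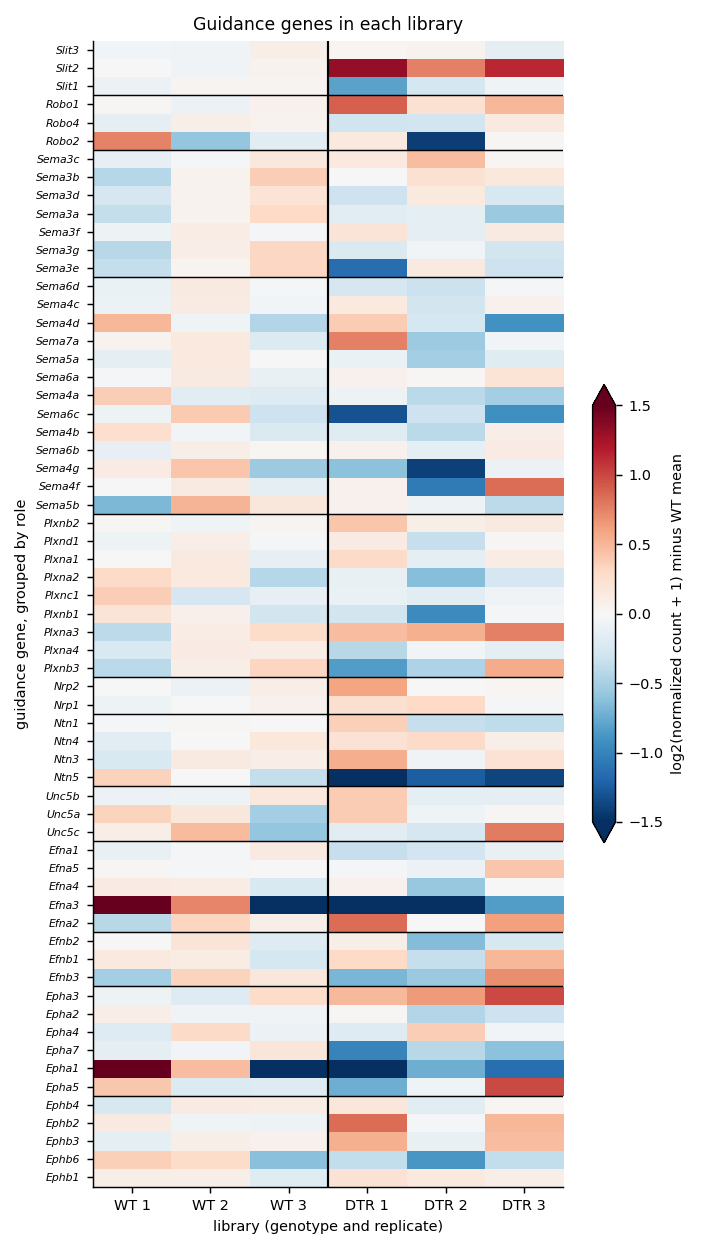
Difference of log2(normalized count + 1) from the WT mean (colour, limited to 1.5 in either direction) for each tested guidance gene (rows, grouped by role) in each library (columns). *Slit2* and *Epha3* are red in all 3 DTR columns, whereas many rows are blue in the column of DTR replicate 2.

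Of 53 partners of these families, 50 were tested, and 3 (6%) had an unadjusted p below 0.05, beside 11% of all genes. The partners are a mixed list of co-receptors, other ligands and receptors, and signalling proteins acting downstream. *Rnd3* measured 3442, 3097 and 3372 in WT and 3856, 4474 and 4072 in DTR (log2 0.32, SE 0.09, edgeR adjusted p = 0.346). *Mical3*, an actin-oxidizing enzyme of the family downstream of plexins, had a log2 fold change of -0.33 (SE 0.12), and *Ablim1*, an actin-binding protein, one of -0.48 (SE 0.19). The groups of *Ablim1* overlapped, at 7409, 9844 and 8355 in WT and 4659, 7616 and 6149 in DTR. Its DTR libraries stood in the same order as for skeletal muscle markers, and the part of muscle RNA was not tested. *Srgap2*, *Adam10* and *Trem2* lay above WT in all 3 DTR libraries, with fitted log2 fold changes of 0.15 to 0.17. Their unadjusted p in edgeR was 0.0996, 0.141 and 0.125. In all, 5 of the 50 partners (10%) had no overlap between groups, beside 16.8% of all genes. The median over the partners was 0.02. *Dcc*, the classical attractive netrin receptor, was below the filter at 3, 4 and 6 counts in WT and 2, 1 and 0 in DTR, while its relative *Neo1* measured 7059, 6209 and 5526 in WT and 10016, 5402 and 7036 in DTR.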

How the data were processed

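Gene counts of 6 libraries were used as deposited. Per the labels and the study's methods, the authors demultiplexed reads with bcl2fastq, trimmed them with FastP, counted them with featureCounts and tested them with DESeq2 1.22.1. The genome build, annotation and strand setting of the counting are not given in the sources used here, and 15 of the 68 guidance genes share exon bases with a gene on the other strand. The labels name both a TruSeq Stranded and a SMARTER kit. A normalized version of these counts, in which each library had been scaled by 1 constant, was also provided and was not used.

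The counts were filtered with filterByExpr, normalized by TMM and tested by edgeR 4.0.16 (R 4.3.3) with glmQLFit (robust) and glmQLFTest, genotype being the single term, with Benjamini-Hochberg adjustment over 17496 genes at a threshold of 0.05. Normalized counts are at the mean library size, and SE was derived from log2 fold change and F. The p-values measure the spread between libraries of 1 tendon each. The labels give neither a batch nor the sex of each library.

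Guidance genes were matched by symbol. Values in every library are given for genes with an unadjusted p below 0.05 or no overlap, and for the highest counts of each role. Members and lists were chosen with earlier results of these data known. Alternatives were DESeq2 1.42.0, voom in limma 3.58.1, other scalings and filters, a replicate block, removal of muscle and keratinocyte markers, and leaving out libraries. Per-length levels used GENCODE M21.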

Additional observations from a re-analysis of the deposited data

How the results depend on the processing

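The count of guidance genes at an adjusted p below 0.05 was 0 in edgeR, 2 with DESeq2 and 1 with no filter on low counts (*Slit2*). The shares of all genes with an adjusted p were 0%, 2.65% and 0.27%. When each library was left out in turn the count was 0 to 3. The 3 came without DTR replicate 2, where 3.02% of all genes were called. Leaving out each library gave 6 to 12 guidance genes at an unadjusted p below 0.05, or 9.52% to 19%, beside 5.57% to 16.6% of all genes. In each of these fits the guidance share was above that of all genes. It was 19% beside 16.6% without DTR replicate 2 and 17.5% beside 7.26% without DTR replicate 1. These fits share libraries, and the difference in shares was not tested. Leaving out each library gave 9 to 19 with no overlap, which fewer samples make easier, beside 22.3% to 33.9% of all genes. The median log2 fold change was -0.0916 to 0.0391. Partners at an unadjusted p below 0.05 numbered from 1 to 8 of 50. The 1 came without DTR replicate 1, beside 7.26% of all genes, and the 8 without DTR replicate 2, beside 16.6% of all genes. Leaving out WT replicates 1 and 2 was an alternative chosen after seeing the data. There 24 of the 63 guidance genes did not overlap, beside 47.9% of all genes, and the median log2 fold change was 0.0414. Any spread in that fit is that of the DTR libraries, with the single WT library assumed to vary alike. *Slit2* ranged from 0.96 to 1.23 in log2 fold change over 15 alternatives. Where more than 1 WT library was kept, its adjusted p ran from 6.39e-07 (DESeq2) to 0.701 (edgeR without WT replicate 2).

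Of the 17 genes recomputed singly, 4 near 0 changed sign; the cause was not tested. *Ephb4* was -0.0979 without WT replicate 1, -0.0764 without DTR replicate 1 and -0.0928 without WT replicates 1 and 2, and at most 0.0952 without DTR replicate 2. *Ntn1* was 0.0405 without DTR replicate 2 and 0.0514 without DTR replicate 3, and -0.366 without DTR replicate 1. *Slit3* was 0.0296 without WT replicate 3 and 0.0402 without DTR replicate 3, and -0.108 without WT replicates 1 and 2. *Unc5b* was -0.152 without DTR replicate 1 -0.111 without WT replicates 1 and 2, and 0.139 without DTR replicate 2.

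Samples with the same replicate number did not deviate together (correlations -0.182, -0.151 and -0.682). These deviations are taken from means of 3 libraries and depend on each other, so they cannot decide whether the numbers pair samples. The labels do not say. With a replicate block 0 guidance genes were called and the median was -0.0662. In that fit 10 had an unadjusted p below 0.05, or 15.9%, beside 10.8% of all genes. Genes with few counts, such as *Ntn5*, are limited by depth.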
